A study of Pinellia ternata with 6 samples.

Results

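The isoforms described here belong to 208 unigenes of Pinellia ternata, a medicinal herb of the arum family, which were chosen by their measured level: each had at least 2 isoforms with a mean of at least 10 FPKM over the 6 samples of the series. FPKM is the number of fragments relative to transcript length and to the fragments of the sample, scaled between samples by the authors. A unigene is a transcript identifier without its last number, the isoform number. The table at hand held 65535 isoforms of 62591 unigenes, of which 2657 had 2 or more isoform rows. The 208 unigenes held 464 isoform rows, and 428 of these rows reached the mean of 10 FPKM and are called well expressed below. Of the unigenes, 196 had 2 well expressed isoforms and 12 had 3.

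RNA was taken from whole seedlings 30 days after planting in 2 lines. T2 was an octoploid line (2n = 104), which was selected as a single plant and kept by tissue culture, and T2Plus was the line of ploidy 16 (2n = 208) obtained from T2 suspension cells with colchicine. Each line had 3 samples. The study describes the 3 samples of a line as independent biological replicates. The labels state that 5 seedlings of a group were mixed before the extraction, and do not say whether each of the 3 samples had its own mix. The p-values therefore rest on a spread between samples that may be technical only. How many doubled plants T2Plus goes back to is not given in the sources used here.

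Trinity, the assembler used for these data, joins reads without a genome and gives transcripts that share sequence the same gene number and different isoform numbers. In a plant with many chromosome sets such transcripts can be splice forms of a gene, alleles, or copies of the gene on related chromosomes. Splicing decides which exons or introns stay in the mRNA and can change the protein or its amount. Doubling of chromosomes with colchicine copies a genome that is already present, so that both lines start from the same set of alleles. The sources used here held no transcript sequences, and the kinds of isoform cannot be told apart in these data.

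Isoform values were read as shares, that is the isoform's FPKM as a percentage of the sum over the isoform rows of its unigene in the same sample. A share does not move with a scale factor that applies to a whole sample. It is a share of the rows at hand. The isoform numbers of 165 of the 208 unigenes had gaps, only 15 unigenes were numbered from 1 without a gap, and the highest number was 27, so isoforms that were not analysed here could belong to the same unigenes. Of the 208 unigenes 168 had 2 rows, 32 had 3 and 8 had 4.

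The unigenes held between 5.01% and 6.32% of all FPKM in a sample. The leading isoform of a unigene held a median of 67.6% to 73.2% of the sum, depending on the sample. One T2 sample, replicate 2, stood apart from the others. Its isoform shares differed from those of the other T2 samples by a median of 6.03 percentage points, against 2.48 to 3.84 points in the 5 other samples. Without this sample 10 of the 50 share calls reported below were lost. Its part is given for the unigenes named below where it changed a share call.

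The rule of the unigenes used the mean over the 6 samples and not the line, and the mean can be reached through a line in which an isoform was high. In 67 unigenes a well expressed isoform had a mean under 10 FPKM in one of the lines (41 isoforms in T2 and 33 in T2Plus). Such an isoform had to differ in level between the lines. The counts of calls below are therefore also given for the unigenes whose well expressed isoforms reached 10 FPKM in both lines.

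Shares differed between T2 and T2Plus in 50 of the 206 unigenes that could be tested. An isoform was called when the limma test on the log ratio of the isoform to the sum of the other isoforms gave an adjusted p of at most 0.05 and the mean share differed by at least 10 percentage points. The 50 unigenes were 24.3% of those tested, while 8.81% of all 1374 tested unigenes of the table were called. This background included the 206 unigenes themselves and isoforms of only 1 FPKM in at least 3 samples, so it was not matched by level. The backgrounds given below were not matched by level either, and none was taken for unigenes at 10 FPKM in both lines. Whether the higher percentage goes with the level was not tested. Among the 140 unigenes whose well expressed isoforms reached 10 FPKM in both lines, 22 or 15.7% were called, and among the 66 others 28 were called. By isoform, 97 of 450 passed, against a background of 9.58%, and 43 of 300 did so in the unigenes at 10 FPKM or more in both lines. In the 168 unigenes with 2 rows the shares mirror each other, so counts by isoform largely repeat the counts by unigene. At the adjusted p alone the numbers were 120 isoforms and a background of 11.4%. The shares of 214 of the 450 isoforms (47.6%) did not overlap between the 3 samples of each line, while 29% of the isoforms in the whole test did not overlap. In the unigenes at 10 FPKM or more in both lines 128 of 300 did not overlap.

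**Figure D1:**
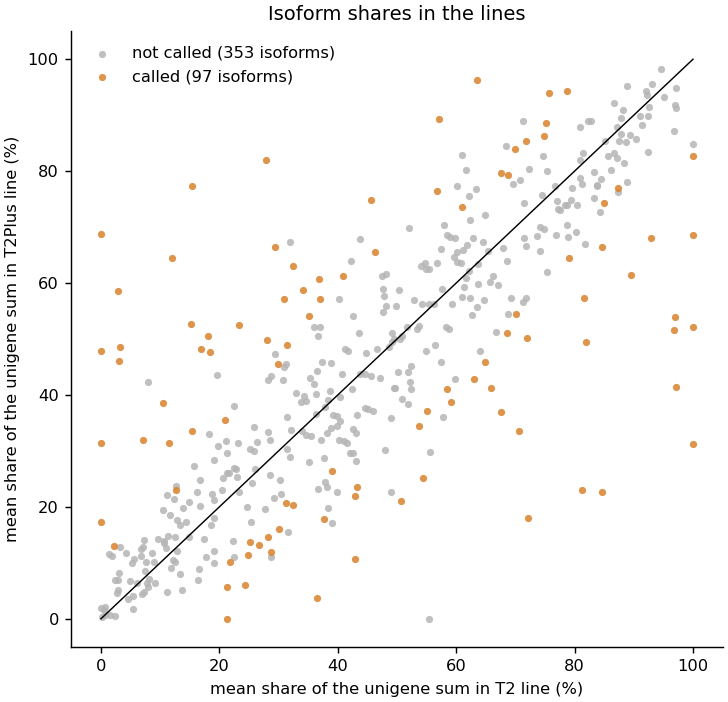
Mean share of the unigene sum (%) in T2 line (x axis) and T2Plus line (y axis) for the 450 isoforms tested. Each point is 1 isoform and the line marks equal shares. The 97 called isoforms lie away from the line on both sides, and several isoforms on the left edge had a share of 0% in T2.

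The largest difference of a share in a unigene was under 5 points in 66 of the 206 unigenes, from 5 to under 10 points in 55, from 10 to under 20 in 50, from 20 to under 30 in 17, from 30 to under 50 in 12 and 50 points or more in 6. Its median was 8.08 points, and 7.45 points over all 1374 unigenes tested. In the 50 called unigenes the median was 24.5 points and the highest value 68.7 points. The highest mean share, whichever isoform held it in a line, was smaller in T2Plus than in T2 in 30 of the called unigenes and larger in 20. Leaving out T2Plus replicate 2 left 31 called unigenes and leaving out T2Plus replicate 3 left 33, and 27 of the 50 stayed called whichever sample was left out.

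In 13 unigenes the isoforms changed places: one isoform held the largest share in all 3 T2 samples and another in all 3 T2Plus samples. With the leader taken from the mean of each line the number was 40, and with a margin of at least 10 points in every sample it was 8. The 13 were 6.31% of the 206 unigenes tested, against 3.35% of all tested unigenes of the table. Of the 13, 12 were also called, and the background of called swaps was 2.62%. In 7 of the 13 unigenes every well expressed isoform reached 10 FPKM in both lines.

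**Figure D2:**
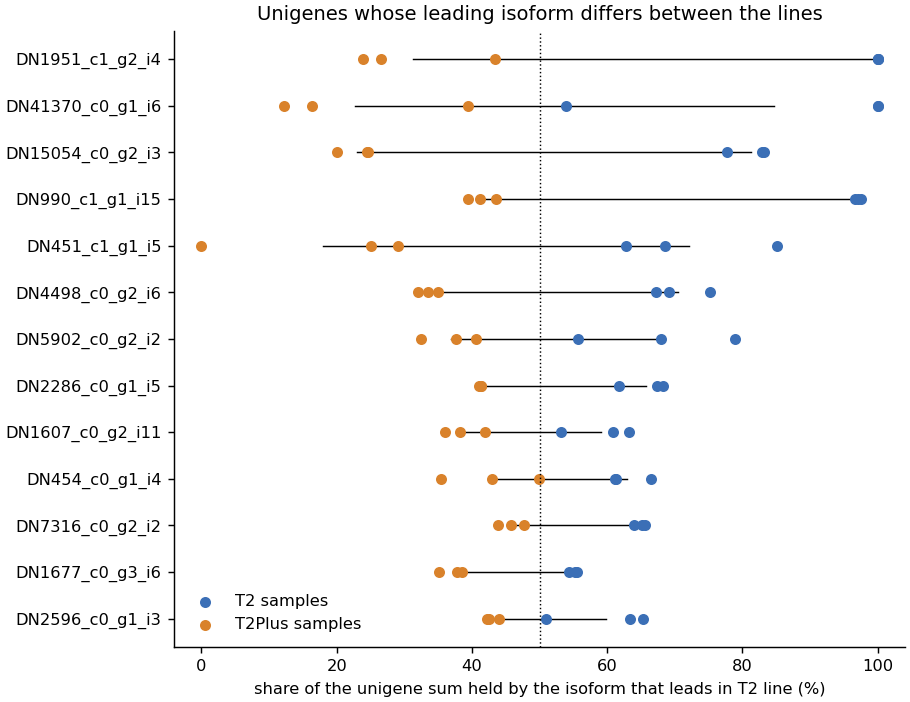
Share of the unigene sum (%) of the isoform that leads in T2 line, for the 13 unigenes whose leading isoform differed between the lines. Points are single samples, the horizontal line joins the means of the lines and the dotted line marks 50%. In every unigene the 3 T2 samples lie to the right of the 3 T2Plus samples.

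The largest swap was in TRINITY_DN1951_c1_g2. Its isoform i4 had 21.7, 19 and 20.2 FPKM in T2 and 9.18, 11 and 10.4 FPKM in T2Plus. Isoform i2 was listed at 0 in all 3 T2 samples and had 25.3, 14.3 and 33.1 FPKM in T2Plus. One isoform was thus the whole sum in T2, and in T2Plus the other held 73.4%, 56.5% and 76.1%, so that the groups did not overlap. The mean share of i2 differed by 68.7 points (adjusted p = 3.51e-04). At isoform level i2 rose (adjusted p = 0.00103), with no fold given because its T2 values were 0, while i4 had a log2 difference of -0.93 ± 0.15, adjusted p = 0.00859, which did not reach 2-fold. Isoform i2 reached the mean of 10 FPKM through T2Plus only, so the direction of its differences in level and share followed from the rule. Errors given with log2 differences are standard errors, and the differences are T2Plus minus T2 of log2(FPKM + 1) values, so that changes of weak isoforms come out too small.

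TRINITY_DN15054_c0_g2 combined a swap with a fall of the whole unigene. Isoform i3 had 590.3, 570.2 and 570.1 FPKM in T2 and 27.5, 22.6 and 32.5 FPKM in T2Plus. Isoform i4 had 73.5, 108 and 73.3 FPKM in T2 and 69.9, 75.6 and 84.9 FPKM in T2Plus. Values of the former were far lower in every T2Plus sample, whereas the values of the latter overlapped between the lines. The share of i3 was 81.3% ± 3.11 in T2 and 23% ± 2.63 in T2Plus (SD, n = 3), and that of i4 was 11.9% ± 2.43 in T2 and 64.5% ± 2.34 in T2Plus. Both shifts had an adjusted p of 5.06e-05. The log2 difference at isoform level was -4.36 ± 0.14, adjusted p = 6.67e-05 for i3 and -0.12 ± 0.18, adjusted p = 0.69 for i4. Isoform i1 also fell, with 48.1, 55.8 and 41.5 FPKM in T2 and 14.6, 14.6 and 15 FPKM in T2Plus, and its share was higher in T2Plus by 5.64 points, under the 10-point threshold. The sum was 710.2 ± 24.6 FPKM in T2 and 119 ± 11.5 FPKM in T2Plus, a log2 difference of -2.57 ± 0.10, adjusted p = 1.14e-04.

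In TRINITY_DN990_c1_g1 the isoforms moved in opposite directions. Isoform i15 had 46.7, 52.6 and 45.7 FPKM in T2 and 14.6, 14.6 and 18 FPKM in T2Plus, and isoform i12 had 1.19, 1.78 and 1.34 FPKM in T2 and 22.3, 18.9 and 25.7 FPKM in T2Plus. The T2 and T2Plus samples were far apart for both. Isoform i15 fell (log2 difference -1.57 ± 0.14, adjusted p = 0.00129) and isoform i12 rose (log2 difference 3.26 ± 0.24, adjusted p = 7.30e-04). The share of i12 was 2.87% ± 0.394 in T2 and 58.6% ± 2.07 in T2Plus (adjusted p = 8.27e-05), while the sum of the unigene did not pass the test (log2 difference -0.39 ± 0.14, adjusted p = 0.111).

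A reciprocal change of similar shape was seen in TRINITY_DN4498_c0_g2, where isoform i6 had 25.8, 35 and 31.3 FPKM in T2 and 11.8, 14.4 and 13.7 FPKM in T2Plus and isoform i3 had 11.5, 17 and 10.3 FPKM in T2 and 25, 26.8 and 27.1 FPKM in T2Plus. The share of i6 was 69.1%, 67.3% and 75.2% of the sum in T2 and 32.1%, 35% and 33.5% in T2Plus. Each line kept its order in all of its samples, and the difference was 37 points (adjusted p = 0.00111). Isoform i6 fell, and the log2 difference of i3 was 1.00 ± 0.20, adjusted p = 0.0191, just under 2-fold. In TRINITY_DN2286_c0_g1 the share of isoform i5 was 67.4%, 68.2% and 61.8% of the sum in T2 and 41.4%, 41% and 41.3% in T2Plus (adjusted p = 0.00477), and neither isoform passed the test at isoform level. The T2Plus shares of this unigene lay within 0.351 points of each other.

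TRINITY_DN7316_c0_g2 was the most strongly expressed swap after TRINITY_DN15054_c0_g2 in the T2 samples, and the study listed it under isoprenoid biosynthesis, the pathway that makes terpenoids, carotenoids and sterols. Isoform i2 had 414, 446 and 433 FPKM in T2 and 106, 108 and 102 FPKM in T2Plus. Isoform i3 had 222, 251 and 228 FPKM in T2 and 116, 127 and 131 FPKM in T2Plus. Both were lower in every T2Plus sample, i2 by more than i3: the log2 difference was -2.02 ± 0.08, adjusted p = 8.80e-05 for i2 and -0.90 ± 0.09, adjusted p = 0.00224 for i3. The share of i2 was 65.1%, 63.9% and 65.6% of the sum in T2 and 47.7%, 45.8% and 43.9% in T2Plus, a difference of 19.1 points (adjusted p = 4.10e-04). The sum fell (log2 difference -1.52 ± 0.08, adjusted p = 2.45e-04).

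In TRINITY_DN5902_c0_g2 both isoforms rose, by unequal amounts. Isoform i1 had 4.08, 5.22 and 3.42 FPKM in T2 and 149, 172 and 206 FPKM in T2Plus, and isoform i2 had 5.11, 11.1 and 12.8 FPKM in T2 and 102, 104 and 99.1 FPKM in T2Plus. All T2Plus values were many times the T2 values, and the log2 difference was 5.08 ± 0.19, adjusted p = 8.61e-05 for i1 and 3.35 ± 0.30, adjusted p = 0.00142 for i2. The share of i1 was 44.4%, 32% and 21.1% of the sum in T2 and 59.4%, 62.3% and 67.6% in T2Plus (adjusted p = 0.0217), and the call was lost without T2 replicate 2 or T2Plus replicate 2 or 3.

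The other called swaps were as follows. In TRINITY_DN1677_c0_g3, which had 3 well expressed isoforms, the share of i2 was 22.2%, 22.4% and 25.1% of the sum in T2 and 50.5%, 53.6% and 53.7% in T2Plus and that of i6 54.3%, 55.3% and 55.5% of the sum in T2 and 38.6%, 37.9% and 35.2% in T2Plus (adjusted p = 6.72e-04 for i2). Only i2 of this unigene rose, with a log2 difference of 1.33 ± 0.17, adjusted p = 0.00426. In TRINITY_DN1607_c0_g2 the share of i11 was 53.1%, 60.9% and 63.3% of the sum in T2 and 38.3%, 42% and 36% in T2Plus (adjusted p = 0.0225). In TRINITY_DN454_c0_g1 the share of i4 was 66.5%, 61.3% and 61.2% of the sum in T2 and 43%, 35.4% and 49.9% in T2Plus (adjusted p = 0.0469), so that the isoforms were nearly level in T2Plus replicate 3. The call of TRINITY_DN1607_c0_g2 was lost without T2 replicate 3 or T2Plus replicate 1, 2 or 3, and that of TRINITY_DN454_c0_g1 without any one of the 6 samples.

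TRINITY_DN41370_c0_g1 and TRINITY_DN451_c1_g1 had large differences with a large spread inside the lines. Isoform i4 of TRINITY_DN41370_c0_g1 had 23.7, 0 and 0 FPKM in T2 and 12, 35.3 and 26.1 FPKM in T2Plus, so that 2 of the 3 T2 samples were listed at 0 while T2 replicate 1 was within the T2Plus range. The share differed by 62 points (adjusted p = 0.0467), and the call was lost without T2 replicate 2 or 3 or T2Plus replicate 1, 2 or 3. It was lost in 12 of 15 other settings of the test, among them the rescaling of samples and 0.5 or 0.1 FPKM added in place of 1. Isoform i5 of TRINITY_DN451_c1_g1 had 22.9, 36.6 and 21.2 FPKM in T2 and 5.69, 3.6 and 0 FPKM in T2Plus. Its share was 62.8%, 68.5% and 85.1% of the sum in T2 and 25%, 29% and 0% in T2Plus (adjusted p = 0.0291), and the call was lost without T2 replicate 2 or 3. The call was also lost with a replicate block, with 0.1 FPKM added in place of 1 and with the arcsine square root of the share in place of the log ratio. The 1 swap that was not called, TRINITY_DN2596_c0_g1, is named here after its values were seen, with shares of isoform i3 of 63.4%, 65.3% and 50.9% of the sum in T2 and 42.2%, 42.5% and 43.9% in T2Plus (adjusted p = 0.0583).

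In another set of called unigenes the leading isoform of T2 still held the larger mean share in T2Plus, beside a second isoform that was at or near 0 in T2. TRINITY_DN32690_c0_g1 had isoform i6 at 60.8, 101 and 64.9 FPKM in T2 and 74.5, 78.9 and 81.6 FPKM in T2Plus, with overlapping ranges. Its isoform i1 was listed at 0 in all 3 T2 samples and had 70.8, 69.8 and 74.9 FPKM in T2Plus. Its share of 48.7%, 46.9% and 47.9% in T2Plus was close to that of i6 (adjusted p = 5.06e-05). The sum rose (log2 difference 1.02 ± 0.19, adjusted p = 0.0154), and i6 had a log2 difference of 0.09 ± 0.20, adjusted p = 0.803.

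TRINITY_DN660_c2_g1 showed the same kind of shift with no change of the sum that passed the test. Isoform i12 had 206, 162 and 194 FPKM in T2 and 99.7, 94.9 and 87.3 FPKM in T2Plus. Isoform i2 had 4.64, 5.4 and 7.65 FPKM in T2 and 81.9, 74 and 84.6 FPKM in T2Plus. The minor isoform of T2 came close to the major isoform in each T2Plus sample, and its share was 3.07% ± 0.801 in T2 and 46% ± 2.84 in T2Plus (adjusted p = 5.06e-05). The log2 difference was 3.58 ± 0.19, adjusted p = 2.32e-04 for i2 and -0.98 ± 0.12, adjusted p = 0.0035 for i12. The sum was 193 ± 22.8 FPKM in T2 and 174 ± 6.64 FPKM in T2Plus.

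In TRINITY_DN536_c1_g1 isoform i6 had 23.9, 33.1 and 22.1 FPKM in T2 and 30.3, 26.5 and 27.3 FPKM in T2Plus and isoform i2 had 0.862, 1.19 and 0.651 FPKM in T2 and 24.7, 25.7 and 28.7 FPKM in T2Plus. Isoform i6 overlapped between the lines, while i2 was near 1 FPKM in all T2 samples and rose (log2 difference 3.85 ± 0.23, adjusted p = 3.68e-04). The share of i2 differed by 45.2 points (adjusted p = 3.51e-04). In TRINITY_DN22105_c0_g1 isoform i3 was listed at 0 in all 3 T2 samples and had 27.6, 33.5 and 39.2 FPKM in T2Plus, and its share was 0% in every T2 sample and 25.8%, 33.5% and 35.1% in T2Plus (adjusted p = 1.77e-04). Isoform i2 of that unigene fell, with a log2 difference of -1.27 ± 0.29, adjusted p = 0.0295.

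Well expressed isoforms listed at 0 in every T2 sample numbered 6, and 1 was listed at 0 in every T2Plus sample. Each of them reached the mean of 10 FPKM through the other line only, so its difference in level followed from the rule. The direction of its share difference, where a share was tested, followed from the rule as well. The p-values of these isoforms are therefore not separate evidence of a difference. Isoforms at 0 were not counted over the whole table, neither by line nor by sample. A value of 0 in a table of estimates may be a failed estimate, and such isoforms get no fold. Besides those of TRINITY_DN1951_c1_g2, TRINITY_DN32690_c0_g1 and TRINITY_DN22105_c0_g1, the isoforms at 0 in T2 were in TRINITY_DN3213_c0_g1 and TRINITY_DN6363_c0_g1, both named after their values were seen, and in TRINITY_DN6003_c0_g1. Isoform i10 of TRINITY_DN3213_c0_g1 was listed at 0 in all 3 T2 samples and had 19.4, 21.1 and 22.4 FPKM in T2Plus, and its share of 15.5%, 17.4% and 19.3% there was called (adjusted p = 9.33e-04). Isoform i12 of TRINITY_DN6363_c0_g1 was listed at 0 in all 3 T2 samples and had 19.5, 0 and 88.3 FPKM in T2Plus, with no steady value in T2Plus, and it was under the filter of the test. Over single samples, between 9 and 12 of the 428 well expressed isoforms were listed at 0 in T2 and between 4 and 6 in T2Plus.

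**Figure D3:**
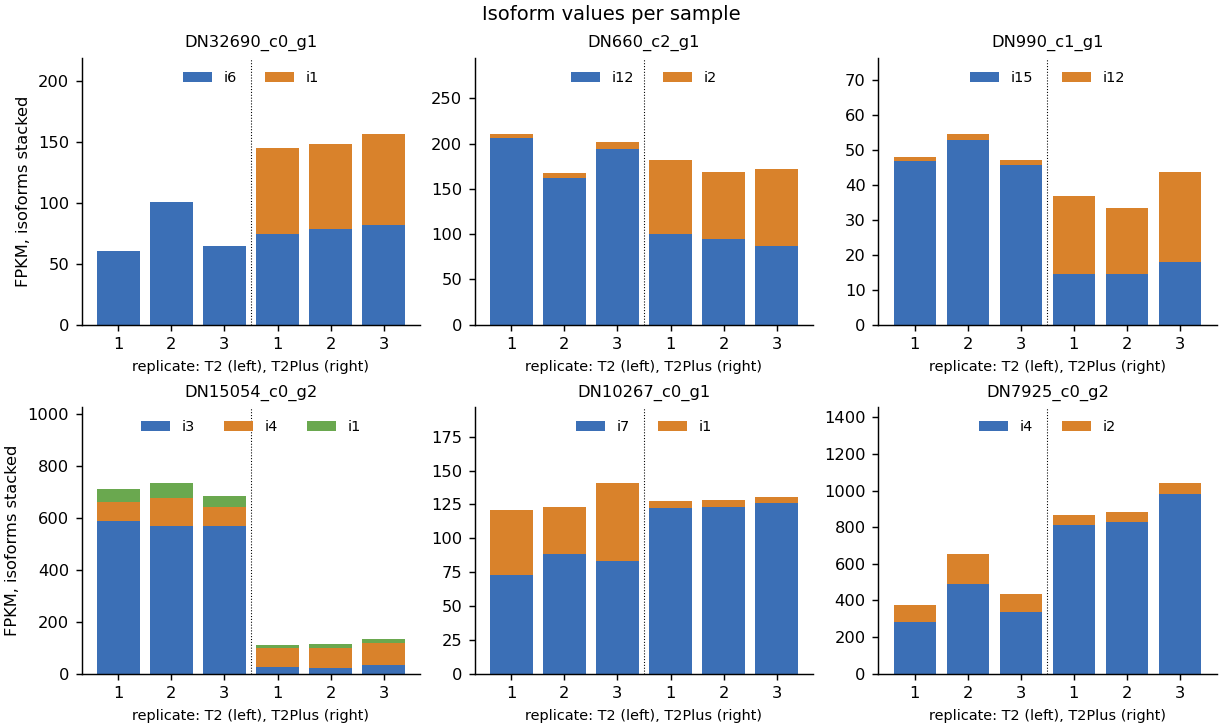
FPKM (y axis, isoforms stacked) per sample for 6 called unigenes, with T2 replicates on the left of the dotted line and T2Plus replicates on the right, each panel on its own scale. A second isoform takes a large part of the bar in all T2Plus samples of TRINITY_DN32690_c0_g1, TRINITY_DN660_c2_g1 and TRINITY_DN990_c1_g1, the leading isoform of T2 is far lower in T2Plus in TRINITY_DN15054_c0_g2, and the second isoform is smaller in T2Plus in TRINITY_DN10267_c0_g1 and TRINITY_DN7925_c0_g2.

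The opposite shift, in which a second isoform of T2 nearly left the sum in T2Plus, was seen in unigenes that include TRINITY_DN7925_c0_g2. Its isoform i4 had 281, 489.6 and 339.5 FPKM in T2 and 815, 829.9 and 979 FPKM in T2Plus, and isoform i2 had 96, 163 and 97.9 FPKM in T2 and 53.5, 54.9 and 60.6 FPKM in T2Plus. The leading isoform rose (log2 difference 1.27 ± 0.21, adjusted p = 0.00891) and the second fell (log2 difference -1.02 ± 0.22, adjusted p = 0.0217). The share of i2 was 24.3% ± 1.68 in T2 and 6.07% ± 0.206 in T2Plus (adjusted p = 5.06e-05), and the shares of the 3 T2Plus samples lay within 0.377 points.

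TRINITY_DN10267_c0_g1, TRINITY_DN7588_c0_g1 and TRINITY_DN3726_c0_g1 are named after their values were seen. In TRINITY_DN10267_c0_g1 isoform i1 had 48.1, 35.1 and 57.6 FPKM in T2 and 4.92, 5.38 and 4.29 FPKM in T2Plus, and the sum was 128 ± 10.9 FPKM in T2 and 129 ± 1.48 FPKM in T2Plus. The share of i1 differed by 32.6 points (adjusted p = 3.51e-04). In TRINITY_DN7588_c0_g1 isoform i7 had 15.4, 22.3 and 17.2 FPKM in T2 and 2.91, 4.98 and 3.81 FPKM in T2Plus, a share difference of 32.2 points (adjusted p = 0.00931). TRINITY_DN3726_c0_g1 had the second isoform i6 at 21.3%, 23.9% and 18.5% of the sum in T2 and 5.33%, 5.88% and 5.81% in T2Plus (adjusted p = 1.88e-04). In all 3 unigenes the T2 shares of the second isoform lay above the T2Plus shares.

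More called unigenes, named after their values were seen, followed these patterns with other sizes. In TRINITY_DN8055_c0_g2 isoform i1 had 82, 88 and 80.6 FPKM in T2 and 57.6, 52.6 and 56.8 FPKM in T2Plus, and isoform i2 had 18.3, 12.7 and 24.8 FPKM in T2 and 57.8, 58.8 and 53.7 FPKM in T2Plus. Their shares came from a clear leader in T2 to near equality in T2Plus, with 81.8%, 87.4% and 76.5% of the sum in T2 and 49.9%, 47.2% and 51.4% in T2Plus for i1 (adjusted p = 0.00341). Isoform i2 rose, with a log2 difference of 1.61 ± 0.23, adjusted p = 0.00582, while the sum was 102 ± 2.83 FPKM in T2 and 112 ± 2.57 FPKM in T2Plus. In TRINITY_DN2761_c0_g2 isoform i2 held 43%, 50.6% and 43.2% of the sum in T2 and 75.2%, 71.7% and 77.4% in T2Plus (adjusted p = 0.00666). That isoform rose (log2 difference 1.41 ± 0.16, adjusted p = 0.00309), and isoform i6 had 13.5, 9.37 and 15.5 FPKM in T2 and 11.1, 10.1 and 8.71 FPKM in T2Plus.

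In TRINITY_DN2201_c0_g1 the shift came with a fall of the leader. Isoform i4 had 171, 165 and 156 FPKM in T2 and 16.3, 18.2 and 19.9 FPKM in T2Plus, and isoform i3 had 7.71, 20.7 and 10 FPKM in T2 and 8.31, 5.9 and 11.8 FPKM in T2Plus. The first fell in every T2Plus sample, while the values of the second overlapped between the lines. The share of i4 was 92.8% ± 3.56 in T2 and 68.1% ± 6.67 in T2Plus (adjusted p = 0.00789), and the sum fell (log2 difference -2.68 ± 0.13, adjusted p = 2.14e-04). In TRINITY_DN3965_c0_g1 the leading isoform i22 held 76.5%, 86.7% and 81.9% of the sum in T2 and 56%, 60.3% and 55.6% in T2Plus (adjusted p = 0.00901), and isoform i13 rose (log2 difference 1.15 ± 0.16, adjusted p = 0.00521).

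Some shifts were small and even among samples. In TRINITY_DN2473_c0_g1 isoform i3 held 70.9%, 69.6% and 70.03% of the sum in T2 and 55%, 54.6% and 54.1% in T2Plus (adjusted p = 0.0046), and in TRINITY_DN7168_c0_g2 isoform i13 held 69.5%, 71.9% and 68.6% of the sum in T2 and 83.9%, 83.4% and 84.6% in T2Plus (adjusted p = 0.00647). The shares of both unigenes stayed within 3.24 points inside either line. Less stable calls were those of TRINITY_DN1101_c1_g1, TRINITY_DN299_c0_g1, TRINITY_DN12746_c0_g1 and TRINITY_DN6558_c0_g1. In TRINITY_DN1101_c1_g1, with 3 well expressed isoforms, the called isoform i5 held 36.9%, 51.4% and 40.6% of the sum in T2 and 24.3%, 23.1% and 18.2% in T2Plus (adjusted p = 0.0184), and the sum, 66, 14.4 and 53.5 FPKM in T2 and 146, 129 and 141 FPKM in T2Plus, was lowest in T2 replicate 2. Its call was lost without T2 replicate 3 or T2Plus replicate 2 or 3. In TRINITY_DN12746_c0_g1 isoform i13 had 3.98, 4.37 and 1.11 FPKM in T2 and 19.3, 17.6 and 21.1 FPKM in T2Plus, and its share shift (adjusted p = 0.0316) was a call lost without T2 replicate 1 or T2Plus replicate 1, 2 or 3. The call of TRINITY_DN299_c0_g1 was lost without T2 replicate 3 or T2Plus replicate 2 or 3, and that of TRINITY_DN6558_c0_g1 without T2Plus replicate 1, 2 or 3.

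Of the 454 member isoforms tested at isoform level, 36 rose and 57 fell (the background over the table was 7.22% up and 6.38% down). When every sample was rescaled to the same sum, 44 rose and 43 fell, so the split by direction depended on the scaling. In the unigenes at 10 FPKM or more in both lines 9 of 302 isoforms rose and 28 fell. Isoforms of the same unigene passed in opposite directions in 5 of 207 unigenes with at least 2 isoforms tested, against 0.95% in the table, and 2 of the 5 were at 10 FPKM or more in both lines. The 5 were TRINITY_DN22105_c0_g1, TRINITY_DN7925_c0_g2 and TRINITY_DN990_c1_g1, described above, TRINITY_DN841_c0_g1, described below, and TRINITY_DN3332_c0_g1. Those at 10 FPKM or more in both lines, by their well expressed isoforms, were TRINITY_DN7925_c0_g2 and TRINITY_DN841_c0_g1. The isoform of TRINITY_DN841_c0_g1 that rose and the isoform of TRINITY_DN3332_c0_g1 that fell were not well expressed. In TRINITY_DN3332_c0_g1 isoform i11 had 4.83, 10.9 and 2.22 FPKM in T2 and 31, 33.5 and 24.5 FPKM in T2Plus, and isoform i8 had 6.89, 7.34 and 4.78 FPKM in T2 and was listed at 0 in all 3 T2Plus samples. The share of i8 was 21.3% ± 3.18 in T2 and 0% ± 0 in T2Plus (adjusted p = 0.00109), a shift called whichever sample was left out. The share of i11 was 18.4% ± 9.63 in T2 and 47.7% ± 4.49 in T2Plus (adjusted p = 0.0288), and this call was lost without T2 replicate 1 or 3 or T2Plus replicate 1, 2 or 3. The sum rose (log2 difference 1.04 ± 0.18, adjusted p = 0.0116). Among the 50 unigenes called by share, isoforms only fell in 18, only rose in 14, moved both ways in 4, and none passed at isoform level in 14.

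Of the 50 unigenes called by share 5 rose in sum, 5 fell and 40 (80%) did not pass. This was close to the 84.6% of all 208 unigenes and the 86.5% of all unigenes of the table whose sum did not pass. Over all 208 unigenes 12 sums rose (5.77%, background 7.22%) and 20 fell (9.62%, background 6.3%). After the samples were rescaled to the same sum, 16 rose and 16 fell. The median log2 difference of the sum was -0.15 in the 208 unigenes and 0.10 over all unigenes tested. Rescaling moved the latter by 0.13 to 0.23 and the former to -0.02.

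**Figure D4:**
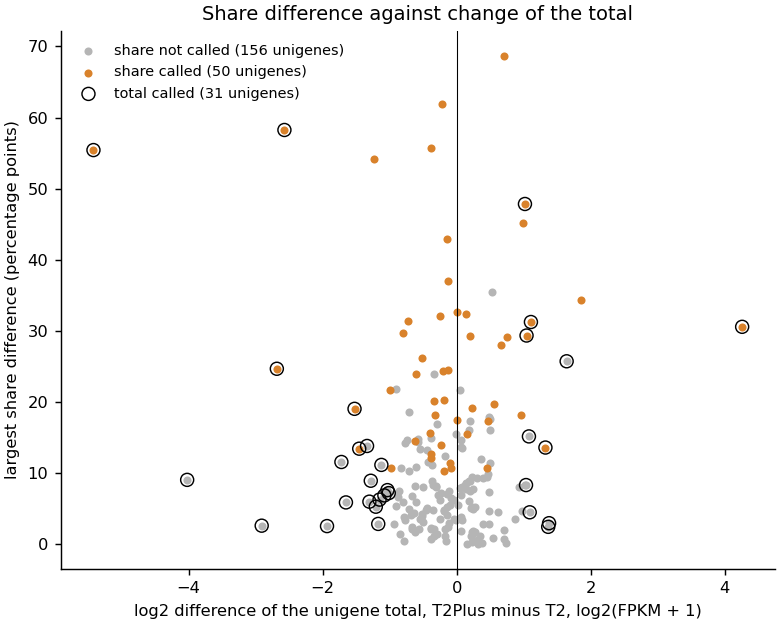
Largest difference of a mean share in each of 206 unigenes (y axis, percentage points) against the log2 difference of its sum, T2Plus minus T2, on the log2(FPKM + 1) scale (x axis). Each point is 1 unigene, called unigenes are coloured and open circles mark sums that passed the test. Of the 50 called unigenes 40 have no circle.

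The largest rise of a sum was that of TRINITY_DN6003_c0_g1 (adjusted p = 3.34e-05), with no fold given because its T2 values were at or near 0. Isoform i10 was listed at 0 in all 3 T2 samples and had 97.1, 90.1 and 109 FPKM in T2Plus, and isoform i1 had 0, 0 and 0.234 FPKM in T2 and 80.6, 92.8 and 107 FPKM in T2Plus. In T2Plus the isoforms held close to equal shares, with 54.6%, 49.3% and 50.3% for i10, and in T2 no share could be read because only T2 replicate 3 had a value above 0. It was therefore 1 of the 2 unigenes left out of the share test. The sum of TRINITY_DN2239_c0_g1 rose, with 29.3, 18.7 and 15.8 FPKM in T2 and 68, 64.3 and 66.6 FPKM in T2Plus (log2 difference 1.64 ± 0.22, adjusted p = 0.00492), and its largest share difference did not pass (adjusted p = 0.0517).

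Among the falls, TRINITY_DN31918_c0_g1 had a sum of 140.0, 96.1 and 108 FPKM in T2 and 1.82, 2.23 and 1.09 FPKM in T2Plus (log2 difference -5.42 ± 0.23, adjusted p = 1.45e-04). Its isoform i1 had 103, 30.8 and 65.3 FPKM in T2 and was listed at 0 in all 3 T2Plus samples. The called isoform was i5, which was not well expressed, with 13%, 19.8% and 12.8% of the sum in T2 and 73.8%, 31.8% and 52.6% in T2Plus (adjusted p = 0.0128). The T2Plus shares rest on sums close to the 1 FPKM added in the test and spanned 42 points, and the call was lost without T2 replicate 3 or T2Plus replicate 3. Isoform i5 also did not pass with a replicate block (adjusted p = 0.0558) or with 0.1 FPKM added in place of 1 (0.0568). With the arcsine square root of the share in place of the log ratio its adjusted p was 0.113. In the last 2 settings another isoform of the unigene was called. TRINITY_DN3543_c0_g2 had a sum of 1306, 2080.1 and 1472 FPKM in T2 and 79.9, 111 and 102 FPKM in T2Plus (log2 difference -4.02 ± 0.21, adjusted p = 2.29e-04), and all 3 of its isoforms fell. Their shares kept the same leader: i7 held 84.2%, 76.2% and 80.8% of the sum in T2 and 69.1%, 72.3% and 80.4% in T2Plus, and no share of the unigene passed the test (adjusted p = 0.136).

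A unigene was called if any of its isoforms passed, so 3 isoforms gave more chances of a call than 2. No background by number of isoforms was taken. Unigenes with 3 well expressed isoforms were called in 6 of 12 cases, and those with 2 in 44 of 194. At 10 FPKM or more in both lines the numbers were 2 of 6 and 20 of 134. Besides TRINITY_DN15054_c0_g2 and TRINITY_DN1677_c0_g3, these included TRINITY_DN1469_c0_g1, in which the leading isoform i7 held 83.8%, 87.7% and 83.5% of the sum in T2 and 75.1%, 74.3% and 73.5% in T2Plus (adjusted p = 0.0162). Its isoform i6 had 10.8, 3.35 and 10.8 FPKM in T2 and 22.4, 20.3 and 19.98 FPKM in T2Plus, with the lowest value in T2 replicate 2, and the call was lost without T2 replicate 2 or T2Plus replicate 1, 2 or 3. TRINITY_DN381_c0_g1 had the isoforms i3, i4 and i1 in the same order in all T2 samples. The leading i3 held 87.8%, 87.9% and 87.9% of the sum in T2 and 87.4%, 85.9% and 86.7% in T2Plus, within 5.93 points for any isoform over the 6 samples.

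Shares were fixed, with every isoform within 10 points over all 6 samples, in 39 of the 206 unigenes (18.9%, against 23.1% of all unigenes tested). Of these, 32 were among the 140 unigenes whose well expressed isoforms reached 10 FPKM in both lines. Fixed unigenes mostly had a strong leader. The leading isoform held over 80% in T2 in 24 of the 39 and under 60% in 3, with a median of 86.6%, against 69.8% over the 206 unigenes tested. A limit in points is met more easily where the other isoforms hold little of the sum. The strong leaders therefore follow in part from the rule.

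TRINITY_DN173_c0_g2 had the highest sum of the fixed unigenes and a leader far from 100%. Isoform i3 had 868, 1237 and 777 FPKM in T2 and 1762, 1679 and 1286 FPKM in T2Plus, and isoform i1 had 511, 694 and 434 FPKM in T2 and 965, 931 and 808 FPKM in T2Plus. The share of i3 was 62.9%, 64.1% and 64.1% of the sum in T2 and 64.6%, 64.3% and 61.4% in T2Plus, and the means differed by 0.248 points (adjusted p = 0.92). All values of both isoforms were higher in T2Plus, but the sum did not pass the test (log2 difference 0.74 ± 0.20, adjusted p = 0.0516). The isoforms of this unigene thus kept a nearly constant ratio over a range of sums from 1211 to 2727 FPKM.

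Of the fixed unigenes 5 fell in sum. TRINITY_DN8271_c0_g1, listed by the study under carbon utilization, had isoform i12 at 632, 1300.4 and 673 FPKM in T2 and 106, 103 and 128 FPKM in T2Plus and isoform i4 at 87, 153 and 98.1 FPKM in T2 and 13.5, 12.5 and 7.2 FPKM in T2Plus. Both fell (log2 difference -2.87 ± 0.28, adjusted p = 0.00188 for i12 and -3.24 ± 0.30, adjusted p = 0.00148 for i4). The share of i12 was 87.9%, 89.5% and 87.3% of the sum in T2 and 88.7%, 89.2% and 94.7% in T2Plus. In TRINITY_DN1641_c0_g1 the sum was 1489 ± 217 FPKM in T2 and 641 ± 37 FPKM in T2Plus and the share of i1 was 64.5%, 61.2% and 62.7% of the sum in T2 and 68%, 69.7% and 66.7% in T2Plus. In TRINITY_DN17656_c0_g1 the sum was 1617 ± 321 FPKM in T2 and 508 ± 28 FPKM in T2Plus and the share of i10 was 97.1%, 96.9% and 97.3% of the sum in T2 and 90.5%, 91.9% and 91.2% in T2Plus.

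A narrow span did not always mean that the lines were alike. In 16 of the 39 fixed unigenes all shares were without overlap between the lines, and in 5 an isoform had an adjusted p of at most 0.05. No background of either count was taken over the 317 fixed unigenes of the table, so whether they are high was not tested. Over all isoforms tested 29% did not overlap and 11.4% had such an adjusted p, but these are counts by isoform. The shares of a unigene depend on each other, so a lack of overlap in all of them is not repeated evidence. The 5 with an adjusted p of at most 0.05 were TRINITY_DN841_c0_g1, TRINITY_DN17656_c0_g1, TRINITY_DN656_c0_g1, TRINITY_DN1641_c0_g1 and TRINITY_DN6507_c0_g1, the last named after its values were seen. TRINITY_DN841_c0_g1, listed by the study under photosynthesis and the response to gibberellin, had isoform i12 at 561, 759 and 566 FPKM in T2 and 220.4, 213 and 261 FPKM in T2Plus and isoform i19 at 44.3, 58.3 and 45.7 FPKM in T2 and 38.5, 36.1 and 41.6 FPKM in T2Plus. The share of i12 was 92.7%, 92.2% and 92.5% of the sum in T2 and 83.3%, 83.8% and 83.5% in T2Plus, a difference of 8.95 points (adjusted p = 0.00109). Isoform i12 fell (log2 difference -1.43 ± 0.15, adjusted p = 0.0023), and a minor isoform, i2, was listed at 0 in all 3 T2 samples and had 5.72, 5.2 and 5.07 FPKM in T2Plus. In TRINITY_DN656_c0_g1 the share of i17 was 94.7%, 95% and 94.1% of the sum in T2 and 98.2%, 98.3% and 98.3% in T2Plus (adjusted p = 0.00234).

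The other fixed unigenes with high sums were TRINITY_DN3903_c0_g1, TRINITY_DN1149_c0_g1 and TRINITY_DN867_c0_g2. In TRINITY_DN3903_c0_g1 isoform i7 held 91%, 94.5% and 90.8% of the sum in T2 and 94.3%, 94.3% and 94.4% in T2Plus. In TRINITY_DN1149_c0_g1 isoform i1 held 78.5%, 78.2% and 78.3% of the sum in T2 and 76.9%, 73% and 71.7% in T2Plus, and in TRINITY_DN867_c0_g2 isoform i8 held 90.9%, 92.9% and 92.8% of the sum in T2 and 93.1%, 92.6% and 95.3% in T2Plus. None of the shares of these 3 unigenes passed the test, with adjusted p = 0.11 for TRINITY_DN1149_c0_g1, the lowest of them.

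Shares also moved inside a line. In 26 of the 206 unigenes (12.6%, against 30.9% of all unigenes tested) an isoform's share spanned over 30 points among the 3 samples of a line, in T2 in 20 unigenes and in T2Plus in 11. The span was wider in T2 than in T2Plus in 138 unigenes, with a median of 10.2 points in T2 and 6.07 points in T2Plus. T2 replicate 2 was the sample with the largest deviation, and without it the number of fixed unigenes was 60 in place of 39, against 42 to 49 without any one of the others. Of the 26 unigenes 3 were called, and 13 were at 10 FPKM or more in both lines.

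**Figure D5:**
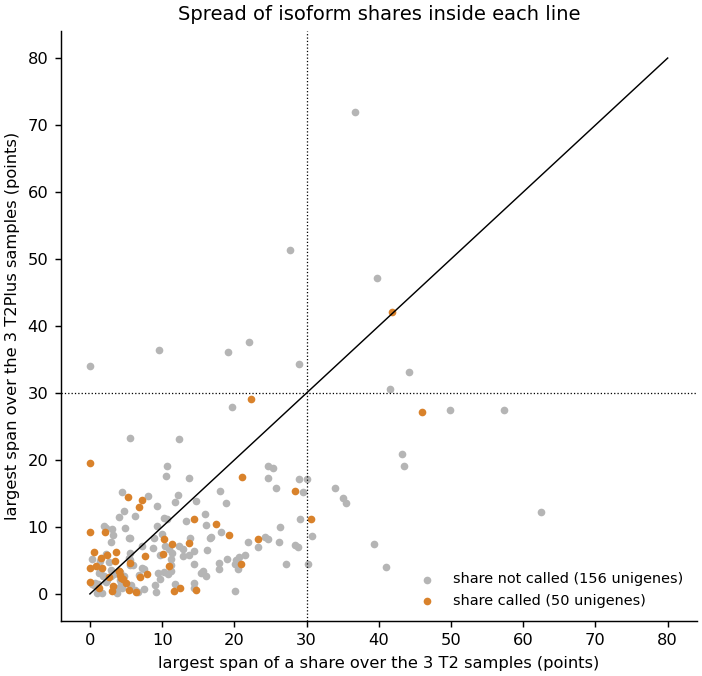
Largest span of an isoform share over the 3 T2 samples (x axis, percentage points) and over the 3 T2Plus samples (y axis) for 206 unigenes. The line marks equal spans and the dotted lines mark 30 points. In 138 unigenes the point lies below the line, that is the span was wider in T2.

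The 5 widest spans inside a line were those of TRINITY_DN13534_c0_g1, TRINITY_DN3340_c0_g1, TRINITY_DN11224_c0_g1, TRINITY_DN387_c0_g1 and TRINITY_DN4871_c0_g1. In TRINITY_DN13534_c0_g1 isoform i1 had 0, 51.7 and 0 FPKM in T2 and 57.4, 18.8 and 63.6 FPKM in T2Plus, and isoform i2 had 0, 12 and 34.1 FPKM in T2 and 0, 52.5 and 19.6 FPKM in T2Plus. Neither isoform had a stable value in either line, both were listed at 0 in T2 replicate 1, and the unigene was left out of the share test for that reason. In TRINITY_DN3340_c0_g1 isoform i17 had 3.53, 12.2 and 11.3 FPKM in T2 and 24.4, 15.2 and 0 FPKM in T2Plus, and in TRINITY_DN11224_c0_g1 isoform i11 had 0, 19.6 and 16.8 FPKM in T2 and 8.16, 13.5 and 10.2 FPKM in T2Plus. The span inside a line reached 71.9 points in T2Plus for the former and 62.4 points in T2 for the latter. In TRINITY_DN387_c0_g1 isoform i10 held 17%, 74.3% and 59.7% of the sum in T2 and 42.9%, 70.3% and 62.9% in T2Plus, and in TRINITY_DN4871_c0_g1 isoform i1 had 56.1, 30.2 and 22.3 FPKM in T2 and 0, 0 and 37.2 FPKM in T2Plus. None of these 4 tested unigenes was called.

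Only 2 of the 208 unigenes had a Swiss-Prot name in the part of the study's annotation at hand, and neither was called. TRINITY_DN16276_c0_g1 was named as the chloroplastic protein Iojap, known from maize, where a mutation of the gene gives striped leaves. Its isoform i6 held 65.7%, 60.4% and 40.3% of the sum in T2 and 73.7%, 54.8% and 58.8% in T2Plus (adjusted p = 0.641), with overlapping lines. TRINITY_DN4808_c0_g1 was named as the E3 ubiquitin-protein ligase UPL3, an enzyme of Arabidopsis that marks proteins for breakdown and acts in leaf hair development. Isoform i16 held 79.8%, 97.4% and 78.4% of the sum in T2 and 83.1%, 84.9% and 88.3% in T2Plus (adjusted p = 0.813), with T2 replicate 2 apart from the other T2 samples.

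The study's lists of enriched terms held 10 of the unigenes, 2 at most in any list. The study chose these unigenes on the same samples, so that their direction is not independent evidence. The 7 described next are outside the naming rule and were named after their values were seen. TRINITY_DN200_c0_g1, listed under the initiation of DNA replication, had isoform i16 at 6.35, 7.99 and 5.7 FPKM in T2 and 41.2, 36.9 and 47.1 FPKM in T2Plus, the highest isoform in T2Plus, while isoform i10 had 11.6, 10.8 and 11.6 FPKM in T2 and 8.61, 11.3 and 11.1 FPKM in T2Plus. The share of i16 was 16.9% ± 3.29 in T2 and 48.2% ± 5.3 in T2Plus (adjusted p = 0.00374).

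TRINITY_DN2425_c0_g1 and TRINITY_DN9415_c0_g1 were both listed under carbon metabolism and the glyoxylate pathway, which turns short carbon acids into one another. In TRINITY_DN2425_c0_g1 isoform i2 fell, with 68.7, 79.7 and 72 FPKM in T2 and 27.5, 21 and 28.1 FPKM in T2Plus, while isoform i4 had 28.6, 29.5 and 27.7 FPKM in T2 and 23.4, 22.5 and 30.2 FPKM in T2Plus. The share of i2 was 70.6%, 73% and 72.3% of the sum in T2 and 54%, 48.3% and 48.2% in T2Plus (adjusted p = 0.0047). In TRINITY_DN9415_c0_g1 isoform i11 rose, with 45.6, 34.8 and 44.3 FPKM in T2 and 125, 126 and 123 FPKM in T2Plus, and isoform i16 had 13.2, 20.7 and 14.5 FPKM in T2 and 21, 22.1 and 20.6 FPKM in T2Plus. The share of i11 was 77.5%, 62.7% and 75.3% of the sum in T2 and 85.7%, 85% and 85.7% in T2Plus (adjusted p = 0.0441), and the call was lost without T2 replicate 2 or 3 or T2Plus replicate 1, 2 or 3.

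TRINITY_DN6362_c0_g1 was listed under the synthesis of carotenoids, the yellow and orange pigments of the chloroplast. Both of its well expressed isoforms fell, and the called share was that of the minor isoform i10 with 1.73%, 1.87% and 2.98% of the sum in T2 and 9.7%, 13.2% and 16.1% in T2Plus (adjusted p = 0.0137), a call lost without T2Plus replicate 2 or 3. TRINITY_DN12890_c0_g1 (sterol and lipid metabolism), TRINITY_DN5680_c0_g1 (glycerol ether metabolism) and TRINITY_DN10307_c0_g1 (glycosyl compound metabolism) were not called by share. The sum of TRINITY_DN12890_c0_g1 rose (log2 difference 1.37 ± 0.12, adjusted p = 0.00139) and its isoform i6 held 96.3%, 86% and 96.8% of the sum in T2 and 97.4%, 94.4% and 94.7% in T2Plus. In TRINITY_DN5680_c0_g1 the sum rose as well (log2 difference 1.09 ± 0.16, adjusted p = 0.00616), and in TRINITY_DN10307_c0_g1 it fell (log2 difference -1.34 ± 0.17, adjusted p = 0.00432).

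At the threshold of the rule, the lowest second isoforms taken in had a mean of 10.1 FPKM in TRINITY_DN36513_c0_g1 and 10.2 FPKM in TRINITY_DN4178_c0_g2. Just outside it lay TRINITY_DN3944_c0_g1 with 9.97 FPKM and TRINITY_DN9774_c0_g1 with 9.93 FPKM.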

How the data were processed

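The authors prepared poly(A) libraries from whole seedlings of T2 and T2Plus (3 samples each), trimmed reads with Trimmomatic 0.36 (FastQC 0.11.5), assembled them de novo with Trinity (k-mer length 25) and estimated isoform levels with RSEM. The deposited values are FPKM scaled by the authors with TMM factors. Which RSEM column (FPKM or TPM) had been scaled could not be settled from the values. The submitters' processing notes also name DESeq. The aligner and the versions of Trinity and RSEM were not stated in the texts at hand. Sums per sample were 527915 to 626556 FPKM. The table keeps no counts, so the reads behind each value are unknown. The study reported the clean reads of each sample, and T2 replicate 2 had the most. From the most common ratio of values under 1 FPKM, a read was worth 0.745 in T2 replicate 2 and 0.933 to 1.13 in the other samples, relative to T2 replicate 1.

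Shares were tested with limma 3.58.1 (R 4.3.3) on log2((isoform + 1)/(sum of the other isoforms + 1)), with a variance trend on the smaller side. The fit used every unigene with 2 or more isoform rows and a sum of at least 1 FPKM in all 6 samples, and isoforms of at least 1 FPKM in at least 3 samples. Sums and isoform levels were tested on log2(FPKM + 1), and called at an adjusted p up to 0.05 with a change of 2-fold or more. P-values were adjusted by Benjamini-Hochberg over all features tested. Scripts were tested on simulated data. The members, lists and rules were chosen with earlier results of these data known. Named unigenes were the 10 largest called differences, the called swaps, the 8 fixed unigenes of highest sum, 4 with most isoforms, the 3 largest rises and 3 largest falls of the sum, the 5 widest spans, those with opposite isoforms, those at the threshold and those with a protein name. Alternatives were other pseudocounts, filters, scalings and measures, a replicate block and leaving out each sample.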

Additional observations from a re-analysis of the deposited data

How the results depend on the processing

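The count of 50 unigenes with a called share was 32 without the variance trend and 31 to 47 when a single sample was left out, with 20 of the 50 calls lost without T2Plus replicate 2 and 19 without T2Plus replicate 3. The other settings of the test gave 43 to 60, and 25 of the 50 were called in each of 15 other settings. With the replicate number as a block the count was 32, of which 30 were shared. Samples of the same number did not deviate together (correlations of 0.01, -0.06 and -0.10). Deviations of 3 samples from their mean balance out, so these correlations cannot show whether the numbers pair the samples. The 13 swaps became 40 when the leader was taken from the mean of each line, 8 with a margin of at least 10 points in every sample, and 13 to 19 with a sample left out. Fixed unigenes numbered 11 at a span of 5 points, 73 at 15 points and 42 to 60 with a sample left out. Both swaps and fixed shares must hold in every sample, so leaving a sample out can only keep or raise these counts. Their ranges with a sample left out therefore cannot show stability. The rule gave 387 unigenes at a mean of 5 FPKM and 98 at 20 FPKM. With a sample left out, 8 to 16 sums rose and 16 to 22 fell, and 30 to 40 isoforms rose and 43 to 51 fell. No called share difference of a named isoform changed sign, while those of 6 uncalled isoforms did when a sample was left out. The rows at hand are a part of the assembly and the table keeps no counts, so the reads behind a share are not known.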
